A study of Homo sapiens with 8 samples.

Results

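RNF43 and 9 further genes of the Wnt receptor pathway (ZNRF3, FZD6, LRP5, LRP6, DKK1, AXIN1, APC, GSK3B and TCF7L2) were examined in breast cancer stem cells depleted of CDH2 or Cx43. The set was selected on the measured fall of RNF43, among the steepest in the Cx43 knockdown against scramble. The others were added because they act with it in the same pathway, with earlier results of these data known. All 10 genes had a value in each of the 8 libraries, out of 12939 genes with values. The cells were MDA-MB-231, an established triple-negative breast cancer line of mesenchymal type, carrying a stable GFP reporter driven by the Oct4a regulatory region. The cells with the highest GFP were sorted as cancer stem cells (CSCs), left overnight in culture, and their ribosome-depleted total RNA was sequenced. Besides the reporter, every group carried a stable RFP vector expressing a short hairpin RNA: scramble (control, n = 3 libraries), CDH2 shRNA (against N-cadherin, n = 3) or Cx43 shRNA (against the gap junction protein connexin 43, n = 2). Each arm was a selected stable transfectant and the CDH2 arm came from 1 chosen clone, so that an effect of the hairpin and of the selected cells cannot be told apart. The sources do not say that the replicates were separate cultures, so p-values measure only the spread between these libraries, which may be technical. Neither targeted transcript, CDH2 or GJA1 (the gene of Cx43), was analysed here, so the knockdown labels could not be checked against them.

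In canonical Wnt signalling a secreted Wnt protein bridges a Frizzled receptor and the co-receptor LRP5 or LRP6. This holds back a cytoplasmic destruction complex, built on AXIN1 and APC with the kinase GSK3B, which otherwise marks β-catenin for degradation. Stabilised β-catenin then acts in the nucleus with TCF and LEF factors, among them TCF7L2. RNF43 and ZNRF3 are transmembrane ubiquitin ligases that remove Frizzled receptors from the cell surface, and R-spondins acting through LGR receptors relieve that removal. DKK1 is a secreted antagonist that binds LRP5 and LRP6. RNF43, ZNRF3 and DKK1 are themselves known targets of the pathway in several tissues and so form feedback loops.

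Promoter sequence was available for 7 of the 10 genes, in 11 windows of 300 bases each, from 250 bases before to 50 bases after an annotated start site (RefSeq, GRCh38.p14). The core of the motif bound by TCF and LEF factors was searched as CTTTGA and CTTTGT and, for the other strand, as TCAAAG and ACAAAG. Matches on opposite strands may share a base. At least 1 match was found in 4 of the 11 windows, from RNF43, DKK1 and TCF7L2, and in 26.2% of all 35116 promoter windows. The 250 bases before the start site are shown for RNF43, which has 2 annotated start sites, and for DKK1, since both genes are known targets of the pathway. Capitals mark the matches. They lie 90 and 135 bases before the respective RNF43 start sites, and 149, 95 and 76 bases before that of DKK1. A match is a description of the letters and no evidence of binding.
RNF43 promoter, first start site (chr17:58417535-58417784, minus strand): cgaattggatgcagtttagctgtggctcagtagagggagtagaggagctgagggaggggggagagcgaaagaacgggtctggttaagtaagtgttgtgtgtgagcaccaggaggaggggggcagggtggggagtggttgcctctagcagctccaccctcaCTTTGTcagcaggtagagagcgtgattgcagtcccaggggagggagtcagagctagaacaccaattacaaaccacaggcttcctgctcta
RNF43 promoter, second start site (chr17:58402722-58402971, minus strand): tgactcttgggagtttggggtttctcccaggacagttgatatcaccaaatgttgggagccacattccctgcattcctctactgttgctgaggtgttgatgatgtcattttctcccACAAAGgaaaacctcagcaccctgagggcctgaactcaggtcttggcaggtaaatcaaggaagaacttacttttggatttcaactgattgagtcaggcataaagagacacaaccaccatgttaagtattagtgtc
DKK1 promoter (chr10:52314031-52314280, plus strand): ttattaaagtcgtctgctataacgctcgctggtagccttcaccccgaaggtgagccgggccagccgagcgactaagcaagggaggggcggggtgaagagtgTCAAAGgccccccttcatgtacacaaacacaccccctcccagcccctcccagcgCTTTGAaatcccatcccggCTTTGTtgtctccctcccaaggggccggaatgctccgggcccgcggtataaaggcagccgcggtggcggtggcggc

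Values are log2(CPM + 1), with CPM the reads of a gene scaled to a common library total, after the authors' removal of a batch effect between sequencing replicates. The CPM summed over the listed genes was 684411 to 727083 per library, and the read depth itself is unknown. As a trace of the batch removal, the deviations of same-numbered libraries from their group means summed to 0 in every gene, to within 1e-04. Replicate number 3 holds only a scramble and a CDH2 shRNA library, so these deviate by equal and opposite amounts and are not independent of each other. The 8 mesenchymal markers of the line all had values (summed CPM 3106 to 3416 over all libraries). None of 5 blood cell markers did, and of 5 hormone receptor and HER2 markers only ERBB2 did. Of 8 epithelial markers 4 had values (EPCAM, KRT8, KRT18 and CLDN4), at a summed CPM of 726 to 906 in scramble, 590 to 736 in CDH2 shRNA and 744 to 748 in Cx43 shRNA libraries.

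The RNF43 transcript was highest in the scramble cells, lower in the CDH2 knockdown and lowest in the Cx43 knockdown. Its log2(CPM + 1) was 2.97, 2.69 and 3.22 in the scramble libraries, 2.12, 2.16 and 1.74 in the CDH2 shRNA libraries, and 1.19 and 1.42 in the Cx43 shRNA libraries. The 3 groups did not overlap. In CPM, the scramble libraries held 6.81, 5.47 and 8.34, the CDH2 shRNA libraries 3.33, 3.46 and 2.35, and the Cx43 shRNA libraries 1.28 and 1.67. Mean CPM in the CDH2 knockdown was thus 0.443 times and in the Cx43 knockdown 0.215 times that of the scramble cells. The ratios are wider apart than the log2 differences because the added 1 shrinks changes of low values.

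In the Cx43 knockdown, the comparison for which RNF43 was chosen, its log2 fold change was -1.66 (SE 0.22), with -1.78 and -1.27 between same-numbered libraries. This was the fourth of the 101 falls past the threshold and the tenth lowest estimate of all genes, and as the basis of the choice it is given as a description without a test. In the CDH2 knockdown RNF43 fell by 0.96 on the log2 scale (SE 0.19, limma adjusted p = 0.0345), with differences of -0.85, -0.54 and -1.48 between same-numbered libraries. That contrast uses the same scramble libraries that entered the choice of RNF43, and it ranked 50th among 155 falls past the threshold. The adjusted p of RNF43 in the CDH2 knockdown rose to between 0.0675 and 0.131 when any one of 5 libraries was left out (CDH2 shRNA 1 or 2, Cx43 shRNA 1 or 2, or scramble 1). Set against each other, the CDH2 shRNA cells held 0.70 more RNF43 than the Cx43 shRNA cells on the log2 scale (SE 0.22), again as a description.

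RNF43 lies on chromosome 17 (58353676 to 58417595, minus strand, hg38). Of its 6.329 kb of exons, 4326 bases are shared with the same-strand gene ENSG00000285897 and 345 bases with the antisense gene TSPOAP1-AS1. Neither of these had a row of its own, and since the counting is not stated to use strand, reads from the shared stretches cannot be assigned to RNF43 alone. Summed CPM of the fibroblast markers with values (COL1A1 and PDGFRB, 2 of 6 listed) was 53.7 to 66.3 in scramble, 40.4 to 52.6 in CDH2 shRNA and 29.6 to 40.2 in Cx43 shRNA libraries. PDGFRB alone carried the step from scramble (5.43 to 5.73 in log2(CPM + 1)) to CDH2 shRNA (4.81 to 5.10), and its CDH2 shRNA and Cx43 shRNA (4.70 and 5.02) libraries overlapped. COL1A1 overlapped between scramble (3.66 to 3.94) and CDH2 shRNA (3.73 to 4.33) and was lower in Cx43 shRNA (2.50 and 3.29). The part of these markers in the RNF43 result was not tested. Since the sequenced cells were sorted from 1 line, these 2 genes are not read as a share of fibroblasts. In bulk RNA such as this, fewer cells that express a gene and less of its RNA per cell cannot be told apart.

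**Figure D1:**
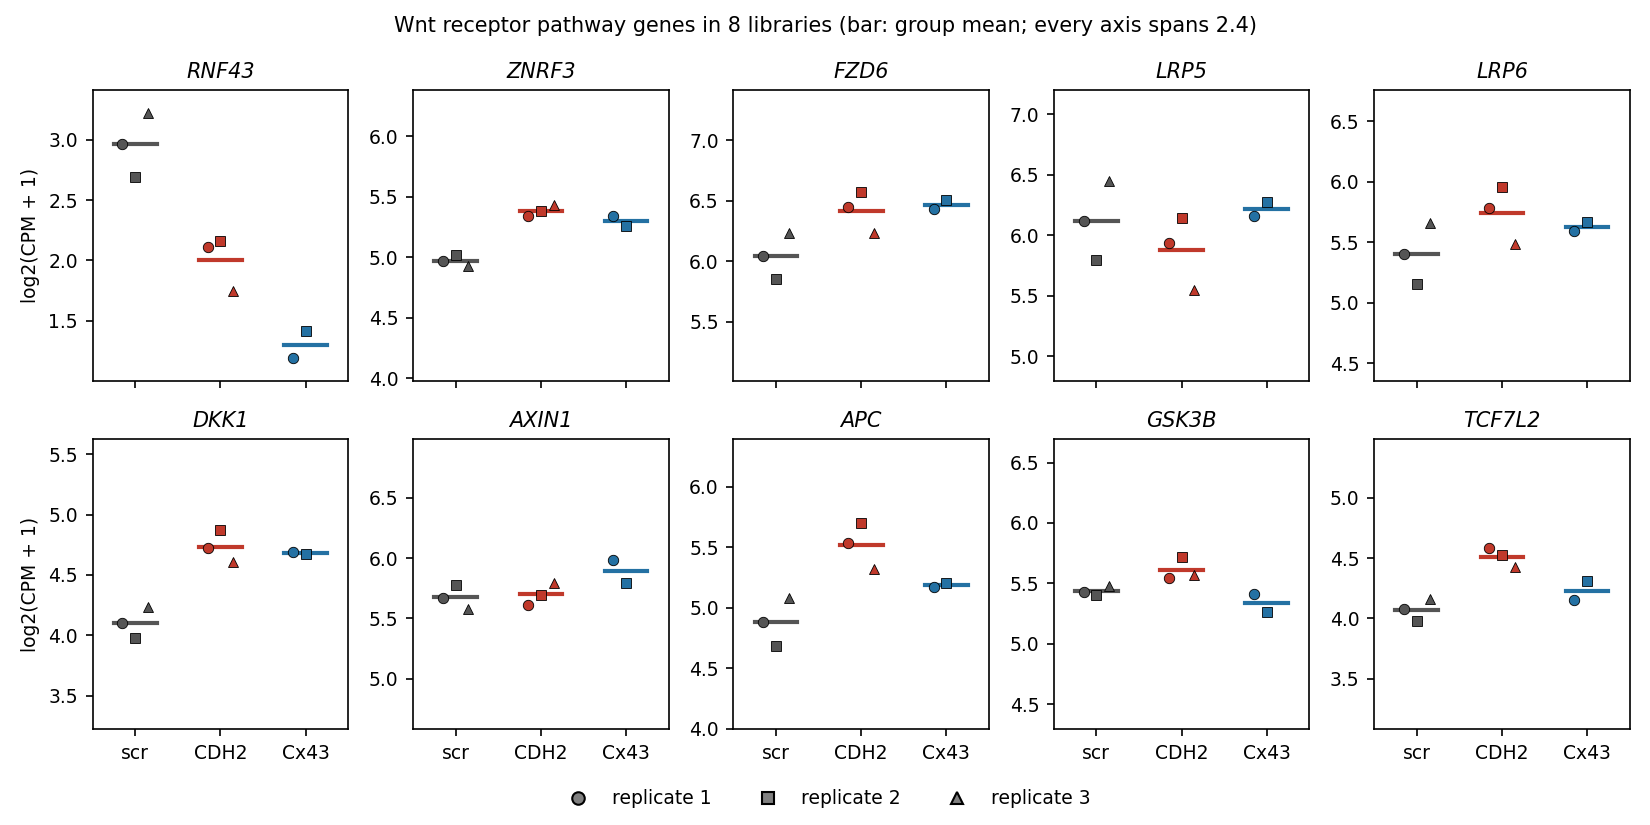
Each panel plots log2(CPM + 1) of 1 gene in the 8 libraries, with circles, squares and triangles for replicates 1, 2 and 3, a bar for the group mean, and all vertical axes spanning 2.4. RNF43 steps down from scramble (2.69 to 3.22) to CDH2 shRNA (1.74 to 2.16) to Cx43 shRNA (1.19 and 1.42), a wider separation than in any other panel.

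ZNRF3, the homologue of RNF43, moved the other way. It held log2(CPM + 1) values of 4.97, 5.02 and 4.93 in scramble, 5.34, 5.38 and 5.43 in CDH2 shRNA and 5.34 and 5.25 in Cx43 shRNA libraries. Every knockdown library lay above every scramble library. ZNRF3 rose by 0.41 in the CDH2 knockdown (SE 0.08, limma adjusted p = 0.0330), which is short of the fold of 1.66 also asked of a call there. In the Cx43 knockdown its difference was 0.33 (SE 0.09, limma adjusted p = 0.134), and the knockdowns differed by 0.09 (limma adjusted p = 0.626).

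Among the receptors, FZD6, a Frizzled receptor, had values of 6.04, 5.85 and 6.23 in scramble, 6.45, 6.57 and 6.23 in CDH2 shRNA and 6.43 and 6.50 in Cx43 shRNA libraries. The lowest CDH2 shRNA library and the highest scramble library, both of replicate 3, lay within 0.00089 of each other. The estimates were 0.37 (SE 0.14, limma adjusted p = 0.115) and 0.43 (SE 0.17, limma adjusted p = 0.215), so that no change passed the test. LRP5 held 6.12, 5.79 and 6.45 in scramble, 5.93, 6.14 and 5.55 in CDH2 shRNA and 6.16 and 6.28 in Cx43 shRNA libraries. Its groups overlapped, with estimates of -0.25 (SE 0.22) and 0.10 (SE 0.26). LRP6, the second co-receptor, held 5.41, 5.15 and 5.66 in scramble, 5.78, 5.96 and 5.49 in CDH2 shRNA and 5.59 and 5.66 in Cx43 shRNA libraries. Its groups overlapped too, with estimates of 0.34 (SE 0.18) and 0.22 (SE 0.21). The limma adjusted p-values of the 2 co-receptors lay between 0.226 and 0.858.

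DKK1 was higher in both knockdowns. Its values were 4.10, 3.98 and 4.23 in scramble, 4.73, 4.87 and 4.60 in CDH2 shRNA and 4.69 and 4.67 in Cx43 shRNA libraries. Each of the 5 knockdown libraries exceeded the 3 scramble libraries. DKK1 rose by 0.63 in the CDH2 knockdown (SE 0.11, limma adjusted p = 0.0289), short of the fold of 1.66. The estimate in the Cx43 knockdown was of similar size, 0.58 (SE 0.13), and did not pass the test (limma adjusted p = 0.0995). The direct difference between the knockdowns was 0.05 (SE 0.13, limma adjusted p = 0.838).

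Within the destruction complex, APC, the scaffold mutated in many colorectal cancers, held 4.88, 4.69 and 5.08 in scramble, 5.54, 5.70 and 5.32 in CDH2 shRNA and 5.17 and 5.21 in Cx43 shRNA libraries. Scramble was the lowest group and CDH2 shRNA the highest, without overlap. APC rose by 0.64 in the CDH2 knockdown (SE 0.15, limma adjusted p = 0.0449), below the fold asked, and its estimate in the Cx43 knockdown was 0.31 (SE 0.17, limma adjusted p = 0.360). AXIN1, the scaffold that limits assembly of the complex, held 5.67, 5.77 and 5.58 in scramble, 5.61, 5.69 and 5.79 in CDH2 shRNA and 5.98 and 5.80 in Cx43 shRNA libraries. Its estimates were 0.02 (SE 0.10) and 0.22 (SE 0.12). GSK3B held 5.43, 5.40 and 5.48 in scramble, 5.54, 5.72 and 5.57 in CDH2 shRNA and 5.42 and 5.26 in Cx43 shRNA libraries. Its estimates were 0.18 (SE 0.09) and -0.10 (SE 0.11), and the knockdowns differed by 0.27 (SE 0.11, limma adjusted p = 0.247). No test on AXIN1 or GSK3B passed, with limma adjusted p-values of 0.218 to 0.883.

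TCF7L2, the TCF factor that carries β-catenin to DNA, held 4.08, 3.98 and 4.16 in scramble, 4.58, 4.52 and 4.42 in CDH2 shRNA and 4.15 and 4.31 in Cx43 shRNA libraries. The CDH2 shRNA libraries lay above both other groups, which overlapped. TCF7L2 rose by 0.44 in the CDH2 knockdown (SE 0.10, limma adjusted p = 0.0419), short of the fold asked, and was 0.16 higher in the Cx43 knockdown (SE 0.12, limma adjusted p = 0.480).

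Counted together, 5 of the 10 genes had a limma adjusted p under 0.05 in the CDH2 knockdown, against 14.3% of all 12939 genes. An unadjusted p under 0.05 was found for 6, against 37.5%. Of the 9 genes other than RNF43, 4 and 5 did so. The 10 were chosen with earlier results of these data known, so these counts are no test of the set. ZNRF3, DKK1, APC and TCF7L2 rose and RNF43 fell. Only RNF43 also reached the fold of 1.66, as did 2.06% of all genes. Groups did not overlap for 6 genes that were higher and 1 that was lower, against 27.1% and 24.8% of all genes. The median log2 fold change of the 10 genes was 0.36, and that of all genes 0.01. Of the 4 epithelial markers with values, EPCAM, KRT8 and CLDN4 were lower in every CDH2 shRNA library than in any scramble library, and the part of this shift in the result was not tested. Neither the 4 calls nor the call of RNF43 held when CDH2 shRNA 1 or 2, Cx43 shRNA 1 or 2, or scramble 1 was left out. Without CDH2 shRNA 3 or scramble 3, 7 genes (the 4, RNF43, FZD6 and LRP6) had an adjusted p under 0.05. The deposited values vary in 2 residual directions while the model counts 3 residual degrees of freedom, so its p-values may be too small. With a residual variance on 2 degrees of freedom, 296 of all genes had an adjusted p under 0.05 in the CDH2 knockdown, against 1846. None of the 4 kept an adjusted p under 0.05 there. RNF43 did, in a test that is not free of its choice.

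In the Cx43 knockdown, 0 of the 9 genes other than RNF43 had a limma adjusted p under 0.05, against 1.21% of all genes, and 3 had an unadjusted p under 0.05, against 21.6% of all genes. These 3 were ZNRF3, FZD6 and DKK1. Groups did not overlap for 5 of the 9, all higher in the Cx43 knockdown, against 31.4% of all genes. The median of the 9 was 0.22, and that of all genes 0.04. Both knockdowns were set against the same scramble libraries, so that likeness between their estimates is no independent evidence. Between the knockdowns, 0 of all 12939 genes had a limma adjusted p under 0.05 (0%), while 2591 (20%) had an unadjusted p under 0.05. GSK3B was the one gene of the 9 with an unadjusted p under 0.05 in that comparison.

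**Figure D2:**
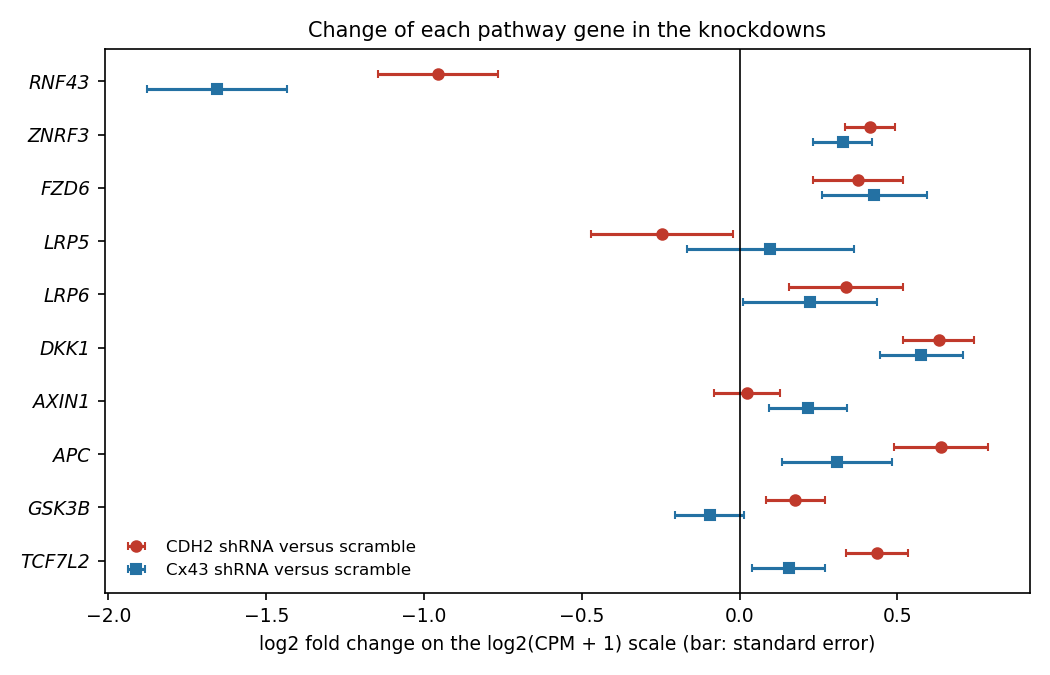
Points give the log2 fold change of each gene against scramble, on the log2(CPM + 1) scale, for CDH2 shRNA (circles) and Cx43 shRNA (squares), with bars for the standard error. RNF43 is at -0.96 and -1.66, and of the other 9 genes 8 lie above 0 in each knockdown, the exceptions being LRP5 in CDH2 shRNA and GSK3B in Cx43 shRNA.

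Compared per length of exon, RNF43 was the least abundant of the 10 in every group, at 1.09 ± 0.23 CPM per kb in scramble (SD, n = 3), 0.482 ± 0.096 in CDH2 shRNA (n = 3) and 0.233 ± 0.044 in Cx43 shRNA (n = 2). Its partner ligase ZNRF3 stood at 4.35 ± 0.14 in scramble. FZD6 was the most abundant, at 16.0 ± 2.1 CPM per kb in scramble, followed by LRP5 at 11.3 ± 2.6, DKK1 at 7.30 ± 0.69 and AXIN1 at 6.65 ± 0.46. The ranges of DKK1 and AXIN1 overlapped in scramble, as did those of ZNRF3 and LRP6 (4.04 ± 0.73) and those of GSK3B (2.36 ± 0.06), TCF7L2 (2.35 ± 0.16) and APC (2.10 ± 0.30). In CDH2 shRNA libraries DKK1 reached 11.6 ± 1.1 CPM per kb, and its range there overlapped with that of LRP5 at 9.46 ± 1.93. Lengths are of all annotated exons of a gene together, which overstates the length of the transcript for genes with many alternative exons. The RNF43 values may hold reads of the genes that overlap its exons.

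**Figure D3:**
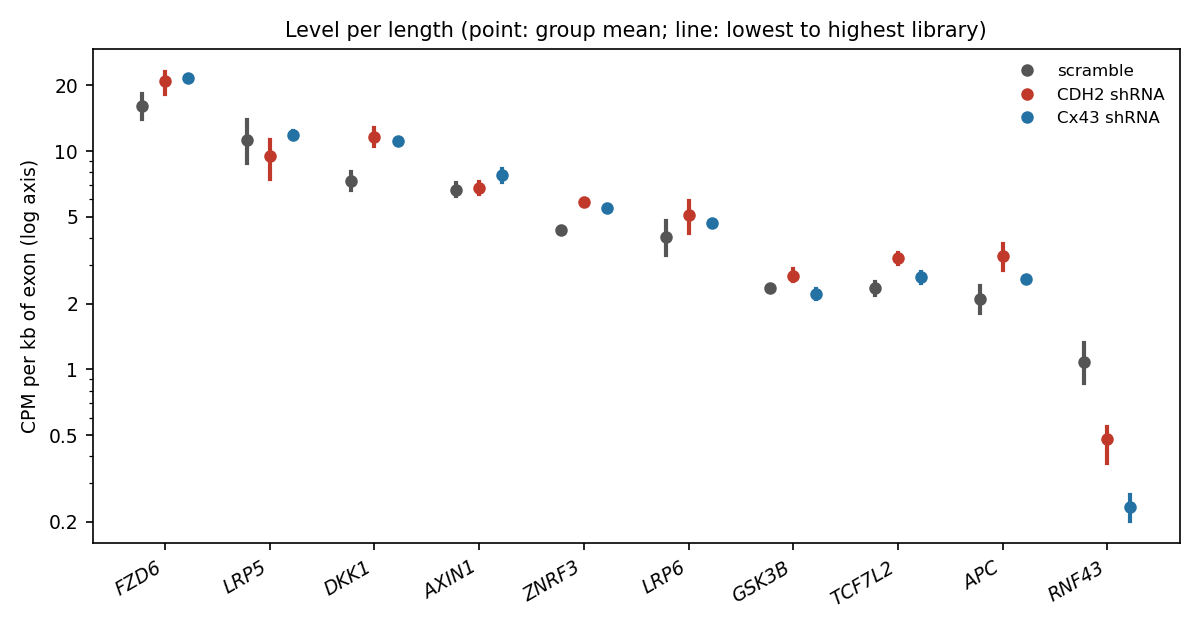
Points give the mean CPM per kb of exon in each group on a log axis, and lines run from the lowest to the highest library. RNF43 lies below the other 9 genes in each group, from 1.09 in scramble to 0.233 in Cx43 shRNA, and FZD6 lies above them.

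A wider list of 126 Wnt pathway genes, sorted by role, was then read, of which 83 had values, the 10 included. In the CDH2 knockdown 9 rose and 5 fell by a limma adjusted p under 0.05 (against 7.29% and 6.98% of all genes), and only RNF43 reached the fold of 1.66. Their median log2 fold change was 0.07. Outside the 10 genes, 5 rose and 4 fell, and none of these 9 calls held without CDH2 shRNA 1 or 2, Cx43 shRNA 1 or 2, or scramble 1, with only the groups compared, or with 2 residual degrees of freedom. In the Cx43 knockdown 2 of the 73 genes outside the 10 passed both thresholds, against 1.18% of all genes, and the median of the 83 was 0.10. These were EPHB3, which fell, and TLE2, which rose. The call of TLE2 is not free of the authors' dropping of genes with low maxima, as described below. The remaining 43 genes of the list were not analysed here.

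At the outside of the cell, 6 of 19 Wnt ligands had values. WNT5B, a ligand linked mostly to β-catenin-independent signalling, fell by 0.29 in the CDH2 knockdown (SE 0.07, limma adjusted p = 0.0475). WNT7B was at 0.44 in the Cx43 knockdown (limma adjusted p = 0.101). PORCN, the acyltransferase that prepares Wnt proteins for secretion, was at -0.61 there (limma adjusted p = 0.120). Of 19 secreted inhibitors 5 had values, and DKK1 alone passed the test, in the CDH2 knockdown, where 14.3% of all genes did. LGR4, an R-spondin receptor, was the single gene of its role with values, at 0.59 and 0.52, neither past the test.

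Among 14 receptors and co-receptors with values, FZD5 rose by 0.62 (SE 0.11, limma adjusted p = 0.0266) and ROR1, a receptor tyrosine kinase for WNT5A, rose by 0.66 (SE 0.13, limma adjusted p = 0.0349) in the CDH2 knockdown. TMEM59, a membrane protein reported to promote Wnt receptor clustering, fell by 0.49 (SE 0.09, limma adjusted p = 0.0339). These 2 rises and 1 fall among the 14 stand beside 7.29% and 6.98% of all genes. FZD8 was at 0.67 in the Cx43 knockdown without passing the test (limma adjusted p = 0.137). Of the 11 signal transducers none passed by limma, with 1 and 2 at an unadjusted p under 0.05 in the CDH2 and Cx43 knockdowns, against 37.5% and 21.6% of all genes. CSNK1G1, a casein kinase, was at 0.40 in the CDH2 knockdown and DVL2, a Dishevelled protein, at 0.28 in the Cx43 knockdown.

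Genes listed under the destruction complex leaned to higher values, with 14 of 16 estimates above 0 in each knockdown, against 51% and 57.6% of all genes. The 16 include regulators of the complex and not its parts alone, among them TNKS, TNKS2, RNF146, USP7 and USP34. None of the 16 passed in the Cx43 knockdown (smallest limma adjusted p = 0.164), where 1.21% of all genes did. In the CDH2 knockdown AMER1, a membrane adaptor of APC, rose by 0.50 (SE 0.08, limma adjusted p = 0.0253) together with APC. TNKS2, a tankyrase that marks axin for degradation, was at 0.64 and 0.46 and passed in neither (limma adjusted p = 0.0852 and 0.333). The medians of the 16 genes were 0.22 and 0.16.

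Of 16 nuclear factors with values, 3 rose and 1 fell in the CDH2 knockdown by adjusted p, against 7.29% and 6.98% of all genes. The acetyltransferase EP300, a co-activator of β-catenin, rose by 0.66 (SE 0.15, limma adjusted p = 0.0417). Its relative CREBBP, named here after its value was seen, rose by 0.41, and TCF7L2 was the third. CTNNBIP1, which keeps β-catenin from TCF factors, fell by 0.54 (SE 0.08, limma adjusted p = 0.0215). In the Cx43 knockdown TLE2, a Groucho co-repressor of TCF factors, rose by 1.37 (SE 0.15, limma adjusted p = 0.0349). The authors dropped genes with low maxima, and TLE2 exceeded the lowest maximum kept only in its Cx43 shRNA libraries. TLE2 thus entered the data through the group in which it was high, and its p-value is not free of that. In scramble, TLE2 lay at a mean percentile of 0.108 among all genes. It held 1.05, 0.93 and 1.14 in scramble, 1.43, 1.23 and 1.18 in CDH2 shRNA and 2.25 and 2.57 in Cx43 shRNA libraries. The Cx43 shRNA libraries thus stood above all others, but the adjusted p of TLE2 passed 0.05 when CDH2 shRNA 1 or 2, Cx43 shRNA 1 or 2, or scramble 1 was left out (0.0542 to 0.310).

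Of 22 genes listed as feedback targets 13 had values, and they did not share a direction. The role as listed mixes feedback inhibitors such as ZNRF3 and DKK1 with other Wnt targets such as CCND1 and CD44. EPHB3, an ephrin receptor, fell by 0.58 in the CDH2 knockdown (SE 0.09, limma adjusted p = 0.0223) and by 0.90 in the Cx43 knockdown (SE 0.10, limma adjusted p = 0.0349). Its values were 5.26, 5.34 and 5.20 in scramble, 4.63, 4.68 and 4.75 in CDH2 shRNA and 4.43 and 4.31 in Cx43 shRNA libraries, without overlap between any of the groups. Both EPHB3 calls were lost without CDH2 shRNA 1 or 2, Cx43 shRNA 1 or 2, or scramble 1 (limma adjusted p of 0.0575 to 0.180 in the CDH2 and 0.0656 to 0.340 in the Cx43 knockdown) and with 2 residual degrees of freedom (0.0658 and 0.0544). RNF43 fell, and ZNRF3 and DKK1 rose in the CDH2 knockdown, as given above. The 9 others (BAMBI, CCND1, CD44, EPHB2, FOSL1, LEF1, MYC, SOX9 and SP5) passed no test. Of all genes, 14.3% passed in the CDH2 and 1.21% in the Cx43 knockdown. BAMBI, a decoy receptor of TGF-β signalling, was at -0.27 and -0.86 (limma adjusted p = 0.153 and 0.0541) and MYC at 0.21 and 0.60 (limma adjusted p = 0.124 and 0.0539). CCND1, which encodes cyclin D1, was at -0.033 and -0.0021.

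**Figure D4:**
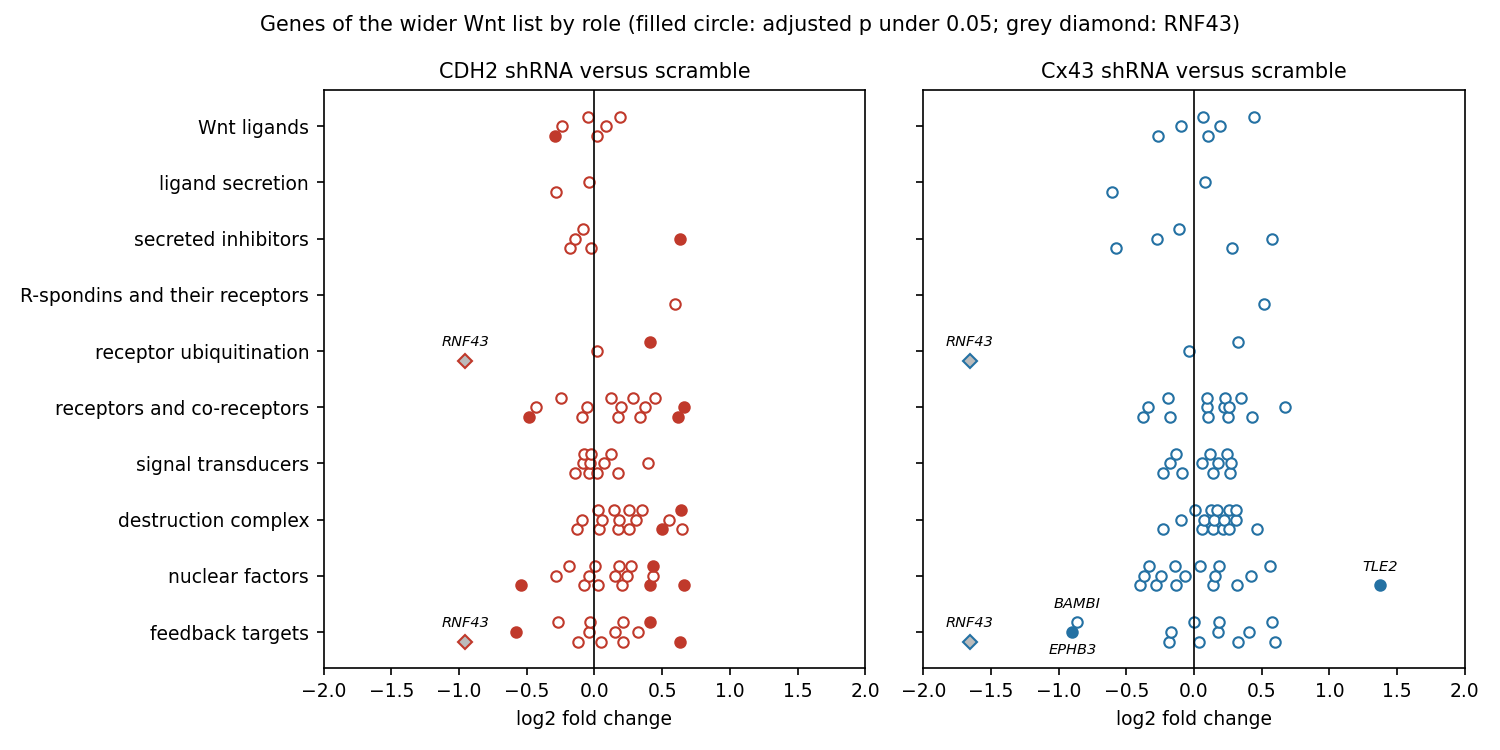
Each circle is 1 gene of the wider Wnt list, placed by its log2 fold change against scramble in CDH2 shRNA (left) and Cx43 shRNA (right) cells and by its role, filled where the limma adjusted p is under 0.05. The grey diamond is RNF43, shown in 2 of the roles it holds, at -0.96 and -1.66, and TLE2 stands at 1.37 in the right panel.

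The genes most like RNF43 across the 8 libraries were sought among the 867 genes whose values spanned at least 1 on the log2 scale. By Pearson's r the 5 closest were SLC1A3, a glutamate transporter (r = 0.998), EHD3, a protein of endocytic recycling (0.990), BACH2, a transcriptional repressor (0.982), MMP19, a matrix metalloproteinase (0.979), and EGR2, an early growth response factor (0.974). SLC1A3 ran from 4.33 to 4.66 in scramble, 3.86 to 4.12 in CDH2 shRNA and 3.61 to 3.75 in Cx43 shRNA libraries. Each of the 5 was highest in scramble and lowest in Cx43 shRNA by group mean. That order follows from choosing them by r with RNF43 and is no finding of its own. EGR2 overlapped between CDH2 shRNA (1.75 to 2.10) and Cx43 shRNA (1.57 and 1.86) libraries. Across the 867 genes the median r was 0.16, and 49 (5.65%) exceeded 0.9. The 8 libraries share 3 groups and vary in few other directions, so that a high r is easily reached and is given as a description.

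**Figure D5:**
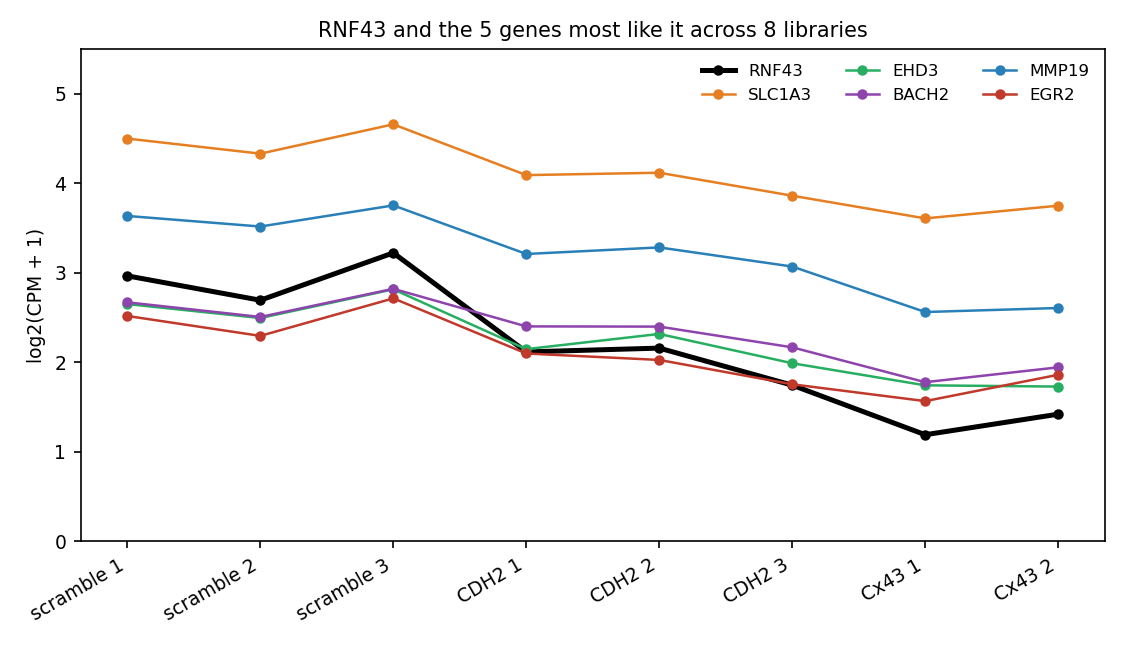
Lines join the log2(CPM + 1) of RNF43 (thick black) and of the 5 genes most like it over the 8 libraries, in the order scramble, CDH2 shRNA, Cx43 shRNA. By group mean all 6 genes step down in this order, as follows from how the 5 were chosen. RNF43 spans the widest range, from 3.22 to 1.19.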

How the data were processed

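RNA-seq of sorted CSCs was read from tables of the same 12939 genes, a separate one for each of 8 libraries. Per the labels and the methods, the authors aligned 75-base single reads to hg38 with STAR (2.6.1 in the submitters' processing notes), quantified genes by expectation-maximization, took log2(CPM + 1), removed a batch effect between sequencing replicates, and dropped genes with low maxima and 1 poor library. The deposited values are therefore log2 values, not counts, and no count model was applied. In each table a single line without a gene name was left out. No column belonged to another sample. Of 12939 symbols 11889 (91.9%) matched GENCODE v44, which gave coordinates and exon lengths.

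Differences came from limma 3.58.1 in R 4.3.3 on all 8 libraries, with group and replicate number as terms. Tests were two-sided, with Benjamini-Hochberg adjustment over the 12939 genes. The model counts 3 residual degrees of freedom where the values vary in 2 directions, so the p-values may be too small. Past the threshold means an adjusted p under 0.05 and a fold of at least 1.66 (CDH2 shRNA versus scramble) or 1.5 (the other comparisons). Folds are on the log2(CPM + 1) scale and understate changes of low genes. The procedure was tested on simulated data in which 200 genes changed by 1 on the log2 scale. It recovered 84% in the CDH2 and 77% in the Cx43 comparison, and called 0 and 1 of 12739 unchanged genes. The noise was drawn independently for each gene, so the simulation does not cover variation that genes share between libraries.

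The 10 genes, the wider list and the marker lists were chosen with earlier results of these data known. Named from the wider list were, per role, up to 4 genes with an adjusted p under 0.05 in either knockdown and those with the largest change in each, all measured feedback targets, and the 5 genes most like RNF43. Alternatives tried were quantile normalization, a pseudocount of 0.1, median centring, omission of the replicate block, a filter keeping the upper 75% of genes by mean, a mean-variance trend, only the groups compared, leaving out each library and, chosen after seeing the data, 2 residual degrees of freedom.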

Additional observations from a re-analysis of the deposited data

How the results depend on the processing

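Quantile normalization, centring on the median, the smaller pseudocount and the mean-variance trend left the numbers of the 10 genes past the threshold at 1, 1 and 0 (CDH2 shRNA versus scramble, Cx43 shRNA versus scramble, CDH2 shRNA versus Cx43 shRNA). Counts in the comparisons with Cx43 shRNA libraries include RNF43, which was chosen on those values, and are no test of it. In the CDH2 knockdown the 1 gene was RNF43 too, set against the scramble libraries of that choice. The filter on low values removed RNF43 itself, and both knockdown counts became 0 for the other 9 genes and for the wider list. Tests on only the groups compared gave 0, 2 and 1 for the 10 genes and 0, 10 and 7 for the wider list, against 1, 3 and 0 with all libraries. Leaving out 1 library at a time gave 0 to 2, 0 to 2 and 0 to 1 for the 10 genes, and 0 to 7, 0 to 10 and 0 to 7 for the wider list. The counts were 0 without CDH2 shRNA 1 or 2, Cx43 shRNA 1 or 2, or scramble 1, and highest without CDH2 shRNA 3 or scramble 3. Without scramble 2 they were 1, 1 and 1 for the 10 genes and 1, 7 and 7 for the wider list. Over all genes, the counts past the threshold were 267, 153 and 0. They became 723, 730 and 545 without either library of replicate 3, 294, 468 and 435 without scramble 2, 0 to 10 without any other single library, 0, 741 and 414 with only the groups compared, 150, 4 and 0 after the filter, and 231, 82 and 0 with 2 residual degrees of freedom. With the pseudocount of 0.1 RNF43 was at -2.15 in the Cx43 knockdown, and the count of all genes past the threshold in the CDH2 knockdown was 372. The cause of these shifts was not tested.

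Whether the replicate numbers pair the libraries cannot be read from these values, since the authors' batch removal had taken out what same-numbered libraries shared, and correlations of their deviations ran from -1 to 0.951. Without the replicate block, the counts of the 10 genes were 1, 1 and 1, each of them RNF43, for which the comparisons with Cx43 shRNA libraries remain a description. For the wider list the counts without the block were 7 in the Cx43 knockdown and 7 between the knockdowns. Over all genes they were 331, 532 and 360. By adjusted p alone, some genes passed without the block but not with it on all 8 libraries. Beside RNF43 between the knockdowns, these were FZD6 in the CDH2 knockdown, ZNRF3 and DKK1 in the Cx43 knockdown, and GSK3B and TCF7L2 between the knockdowns.

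Some estimates changed sign between settings, among them LRP5 at -0.25 in the CDH2 knockdown and LRP6 at 0.22 in the Cx43 knockdown. With quantile normalization AXIN1 became -0.021 in the CDH2 knockdown and WNT5B 0.0056 between the knockdowns. With only the groups compared, FZD6 became 0.042 between the knockdowns and EP300 0.025 in the Cx43 knockdown. Leaving out single libraries, log2 fold changes in the CDH2 knockdown ran from -0.51 to 0.080 for LRP5 and from -0.070 to 0.10 for AXIN1. In the Cx43 knockdown they ran from -0.23 to 0.26 for LRP5, -0.032 to 0.35 for LRP6, -0.21 to 0.019 for GSK3B and -0.25 to 0.025 for EP300. Between the knockdowns they ran from -0.20 to 0.042 for FZD6, -0.10 to 0.24 for LRP6 and -0.080 to 0.12 for DKK1. RNF43 kept its sign in every setting that kept its row. In the comparisons with Cx43 shRNA libraries, on which it was chosen, this is no test. The CDH2 knockdown shares the scramble libraries of that choice. The deposited values give no read depth, so no counting error can be set beside the low RNF43 values.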
